A study of Mus musculus with 5 samples.

Results

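The immunoglobulin genes were followed through CD45+ cells of the mouse thyroid. The set was fixed by gene symbol: every gene starting with Ighv, Igkv or Iglv, plus Ighm, Ighd, Ighe, Igha, the Ighg and Iglc genes, Igkc and Jchain. These were 82 of the 18767 genes of the deposited count table. They comprised 28 heavy-chain variable genes, 38 kappa and 3 lambda variable genes, 8 heavy-chain constant genes, Igkc, 3 lambda constant genes and Jchain. The rule used no measured value, though it was set with earlier results of these data known.

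An antibody is built from paired heavy and light chains. For each chain, a B cell expresses a rearranged variable gene together with a constant gene. It usually uses either a kappa or a lambda light chain. It can later switch its heavy-chain constant gene from Ighm and Ighd to an Ighg, Igha or Ighe gene. Plasma cells, the secreting descendants of B cells, devote much of their transcriptome to these chains, and Jchain encodes the small protein that links IgM and IgA into polymers. Infiltrates of B cells and plasma cells are a known feature of autoimmune thyroid disease.

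NOD.WT mice, a strain prone to autoimmunity, were given immune checkpoint inhibition (ICI) with the anti-PD-1 clone RPM1-14 and the anti-CTLA-4 clone 9D9, or isotype control antibodies of clones 2A3 and MPC11. Treatment of mice of both sexes began at an age of 4 to 6 weeks and ran for 4 weeks at 2 injections per week, with 10 mg/kg per dose in the ICI group. Live CD45+ cells were sorted from dissociated thyroids after perfusion, and 5′ single-cell libraries were made. The ICI group gave 4 libraries pooled from 16 mice, and the isotype group gave 1 library pooled from 10 mice. How many mice went into each library is not stated, so the spread between ICI libraries may be partly technical, and nothing estimates the spread of isotype libraries. The ICI libraries are called ICI 1 to ICI 4 here.

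The table held 10275 cells in 17 clusters assigned by the authors. The libraries held 1163 to 5018 cells and 3858251 to 32296759 unique molecular identifiers (UMIs, counted transcripts), with a median of 1753 to 4321 UMIs per cell. In ICI 1, ICI 2 and ICI 3, 33, 11 and 9 genes were found in exactly 1 cell, against 691 in ICI 4 and 954 in isotype. A member listed at 0 in ICI 1 to 3 may therefore have been left out of that library's table before deposit. Of 179 barcodes found in more than 1 library, 140 were shared by ICI 2 and ICI 3, whose titles differ by a single letter, and the labels do not say whether they are separate preparations. The values for 4 ICI libraries take them as separate, and if they are 1 sample the ICI group has 3, for which the smallest exact p is 0.25. Cluster 14 (160 cells) carried the B cell identity genes, with a summed level of 10130 UMIs per 1000000 UMIs (CPM) for the 18 listed genes against 645 CPM over all cells. Cd79a, a signalling subunit of the B cell receptor, was found in 95.6% of its cells. Cluster 15 was led, after the cells rich in antibody transcripts were set aside, by Myl10, Gm4632, Plac8 and Siglech, followed by the T cell receptor genes Tcrg-C1 and Tcrg-C2, and is called by its number.

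The variable genes that carried most of the signal in the isotype library are printed here, as the first 300 bases of each coding sequence, because pairs of cells shared them. The coding sequences are the reference alleles of GENCODE M21 on GRCm38, the build the authors' notes call mm10, and the NOD alleles may differ. In Ighv1-26 (chr12:114788372-114788805, minus strand), Igkv1-135 (chr6:67609713-67610508, plus strand), Ighv4-1 (chr12:113948282-113948796, minus strand) and Igkv10-96 (chr6:68631963-68632442, minus strand), capitals mark the first coding exon. In Igkv1-131 (chr6:67766036-67766772, minus strand) and Igkv1-133 (chr6:67724902-67725661, plus strand), capitals mark the bases that differ from Igkv1-135.
Ighv1-26: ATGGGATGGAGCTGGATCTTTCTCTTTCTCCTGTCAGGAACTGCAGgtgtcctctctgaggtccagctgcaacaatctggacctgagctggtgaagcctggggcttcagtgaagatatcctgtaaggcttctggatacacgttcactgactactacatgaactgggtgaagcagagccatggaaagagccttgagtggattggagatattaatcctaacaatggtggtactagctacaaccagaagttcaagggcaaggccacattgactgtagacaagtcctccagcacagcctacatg
Igkv1-135: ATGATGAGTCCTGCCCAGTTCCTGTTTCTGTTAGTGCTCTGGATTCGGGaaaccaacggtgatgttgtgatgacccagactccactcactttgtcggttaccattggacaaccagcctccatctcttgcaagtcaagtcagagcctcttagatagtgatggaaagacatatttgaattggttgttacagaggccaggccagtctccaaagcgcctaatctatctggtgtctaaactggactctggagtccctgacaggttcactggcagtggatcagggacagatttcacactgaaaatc
Igkv1-131: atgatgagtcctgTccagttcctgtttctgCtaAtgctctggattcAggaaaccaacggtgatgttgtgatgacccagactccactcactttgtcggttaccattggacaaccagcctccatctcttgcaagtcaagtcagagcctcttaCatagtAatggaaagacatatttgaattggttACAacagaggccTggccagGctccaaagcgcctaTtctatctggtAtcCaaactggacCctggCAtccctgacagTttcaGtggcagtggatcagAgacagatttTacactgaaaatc
Igkv1-133: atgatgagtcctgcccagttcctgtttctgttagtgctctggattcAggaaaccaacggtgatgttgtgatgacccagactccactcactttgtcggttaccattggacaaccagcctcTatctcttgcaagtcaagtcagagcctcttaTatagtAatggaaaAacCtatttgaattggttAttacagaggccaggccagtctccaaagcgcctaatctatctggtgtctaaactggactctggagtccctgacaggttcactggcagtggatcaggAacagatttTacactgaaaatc
Ighv4-1: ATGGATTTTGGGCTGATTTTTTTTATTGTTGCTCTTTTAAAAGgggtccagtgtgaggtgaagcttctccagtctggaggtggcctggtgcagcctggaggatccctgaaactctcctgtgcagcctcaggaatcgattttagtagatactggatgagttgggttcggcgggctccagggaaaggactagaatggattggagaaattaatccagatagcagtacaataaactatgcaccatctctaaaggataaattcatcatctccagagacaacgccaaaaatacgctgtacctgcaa
Igkv10-96: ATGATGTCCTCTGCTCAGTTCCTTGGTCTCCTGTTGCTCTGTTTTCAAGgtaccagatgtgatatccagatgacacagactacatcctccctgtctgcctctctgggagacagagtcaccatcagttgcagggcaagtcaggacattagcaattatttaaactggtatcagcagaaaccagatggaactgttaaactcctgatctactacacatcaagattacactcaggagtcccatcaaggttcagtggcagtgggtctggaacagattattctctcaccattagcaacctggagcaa
Over 362 coding bases, Igkv1-131 differed from Igkv1-135 at 26 positions (92.8% identity) and Igkv1-133 differed from it at 12 (96.7%). Of the 67 variable members with a coding sequence in the annotation, 42 had another member at over 90% identity. Reads could be split between such copies, so their separate counts are uncertain. All 82 members were found in the annotation, 39 on chromosome 6, 36 on chromosome 12, 6 on chromosome 16 and Jchain on chromosome 5.

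Most immunoglobulin transcripts sat in very few cells. The members held 172688 UMIs, and 14 cells that each had at least 5% of their UMIs and at least 300 UMIs from members held 155677 of them, or 90.1%. These are called antibody-rich cells. Kappa variable genes gave 47.8% of member UMIs and heavy variable genes 26.8%, while heavy constant genes gave 10.2%, Jchain 7.80%, Igkc 4.67%, lambda variable genes 1.48% and lambda constant genes 1.23%. Of the variable UMIs, 97.2% lay in the antibody-rich cells, as did 98.6% of Jchain and 83.5% of Igkc. Other constant genes lay partly or wholly outside them. Ighm had 11.7% of its UMIs in the antibody-rich cells, 3.33% in cluster 14 and 85.0% in all other cells. Ighd had 0% in the antibody-rich cells and 64.2% in cluster 14, and the 12 Ighg3 UMIs were also outside the antibody-rich cells. The lambda constant genes had 50.7% in the antibody-rich cells and 40.3% in cluster 14.

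Single cells decided the level of most members. The cell with the most UMIs of a member held a median of 58.9% of that member's UMIs, and this share exceeded 50% for 48 of the 82. Among the 11379 genes with at least 127 UMIs (the members' median), the median share of the highest cell was 0.427%. Of 6898 genes with at least 1000 UMIs, 24 had more than 50% in 1 cell, and 22 of these were members. The remaining ones were Slpi, a protease inhibitor, and Pth, parathyroid hormone. Ighv2-3 (14750 UMIs in 5 cells), Igkv8-19 (12618 UMIs in 9 cells) and Ighv5-6 (7966 UMIs in 13 cells) each had at least 99.8% of their UMIs in 1 cell. Ighd, with 193 UMIs in 124 cells, had the lowest such share of the 82 members, at 2.59%.

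**Figure D1:**
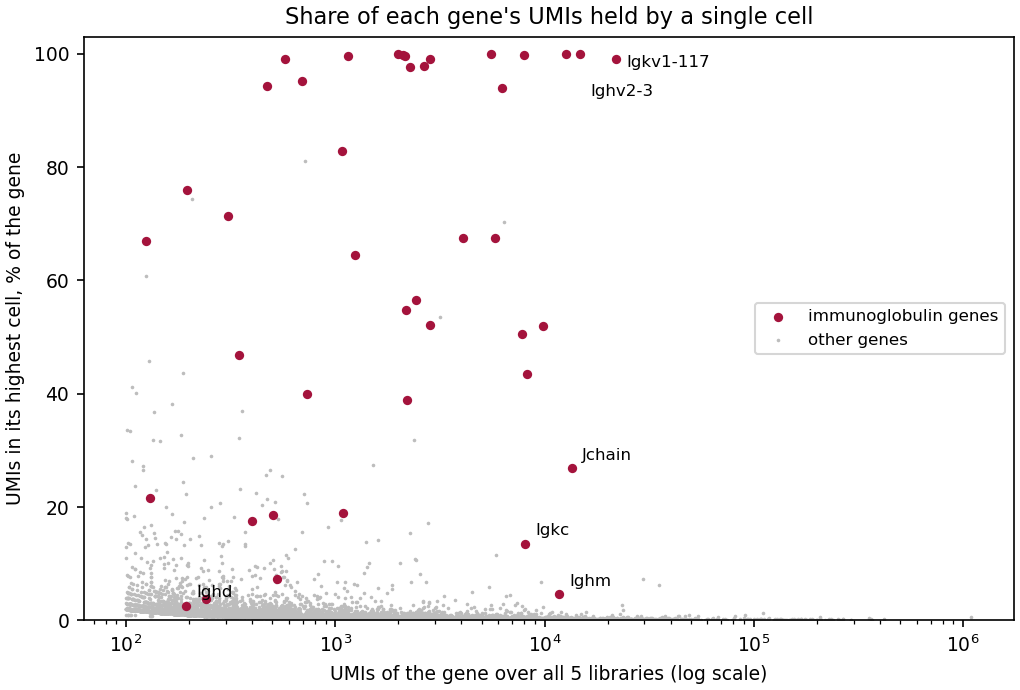
Each point is a gene with at least 100 UMIs, with its total UMIs over the 5 libraries on a log axis and the percent of them in its highest cell on the other. Immunoglobulin genes (red) fill the upper part of the plot, while Ighm and Ighd lie at the bottom with most other genes (grey).

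The cells at 5% or more numbered 16, of which 10 were in ICI libraries and 6 in isotype. As a share of the library they were 0.263% in ICI 1 (4 cells; exact Clopper-Pearson 95% interval 0.0716% to 0.671%), 0.0820% in ICI 2 (1 cell), 0.0860% in ICI 3 (1 cell) and 0.0797% in ICI 4 (4 cells; interval 0.0217% to 0.204%). In isotype they were 0.444% (6 cells; interval 0.163% to 0.963%). Intervals cover counting error only. The cells nearest the threshold were at 5.01% (ICI 4) and 5.95% (isotype) on its upper side and at 3.05% and 2.85% (both ICI 1) on its lower side. The ICI 2 and ICI 3 cells held only 59 and 27 member UMIs of 186 and 188 UMIs, carried the same barcode, and are not counted among the 14. Of the 16 cells, 10 lay in cluster 15, and the rest lay in clusters 2, 7, 9, 11 and 12.

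**Figure D2:**
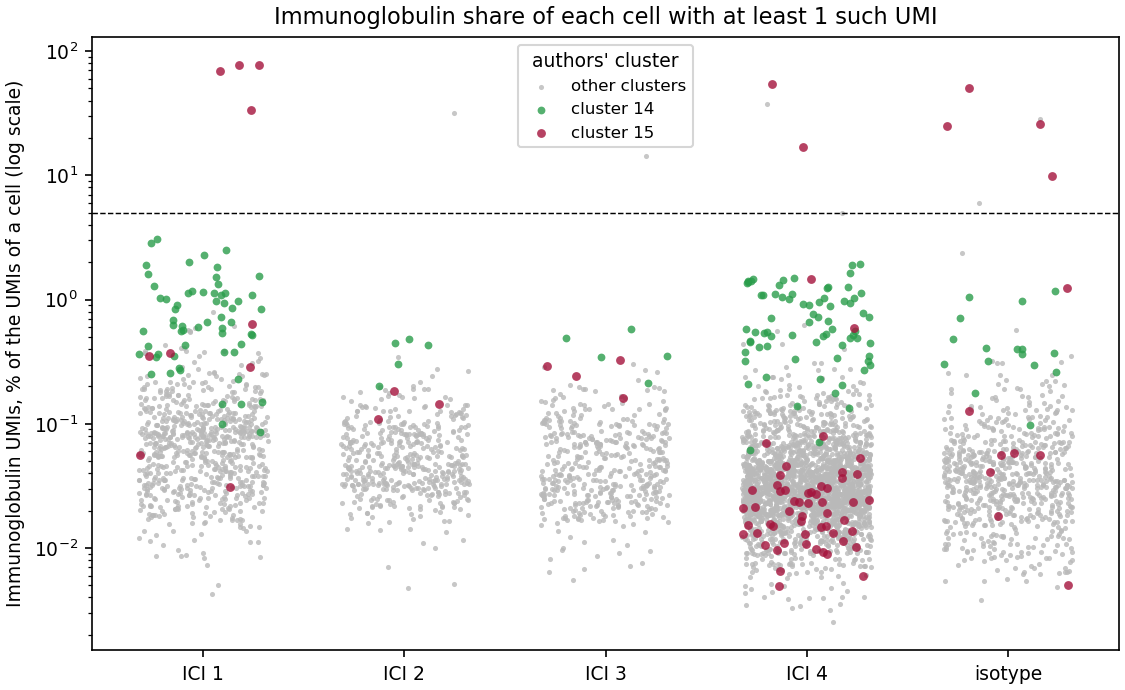
Each point is a cell with at least 1 immunoglobulin UMI, plotted by library as the percent of its UMIs from these genes on a log axis, with the 5% threshold dashed. Every library has cells between 5% and 77.8%, with 1 such cell each in ICI 2 (31.7%) and ICI 3 (14.4%). A gap separates these cells from cluster 14 (green), which stays at or below 3.05%.

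Most antibody-rich cells were dominated by 1 heavy and 1 light variable gene. In 12 of 14 cells both a heavy and a light variable gene had over 50 UMIs, and these made 10 distinct pairs. One heavy variable gene gave at least 99.7% of the heavy variable UMIs in each of them. The leading light variable gene gave 52.9% at the lowest and 90.2% at the median. The second light variable gene belonged to the same family as the first in 8 of the 12 cells and was Iglv1 in 3, while 1 cell had no second. Iglv1 had 1369 UMIs beside the Igkv8-19 of ICI 1 cell 2. In the cell with the lowest value (ICI 4 cell 1), Igkv6-23 had 3928 UMIs, Igkv6-15 had 2796 and Igkv6-14 had 568, and Igkv6-15 is 94.5% identical to Igkv6-23. Variable transcripts outnumbered constant ones: kappa variable UMIs were 4.12 to 36.5 times the Igkc UMIs (median 10.5) over these cells except isotype cell 6, in libraries read from the 5′ end.

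The ICI cells carried switched heavy chains. In ICI 1, cell 1 had Ighv2-3 (14743 UMIs), Igkv1-117 (21850 UMIs), Igha (1199 UMIs) and Jchain (3609 UMIs), and 77.2% of its 56063 UMIs were members. Cell 2 of that library had Ighv10-1 (5569 UMIs), Igkv8-19 (12610 UMIs), Igha (465 UMIs) and Jchain (3110 UMIs), at 68.8% of its UMIs. Cell 3 paired Ighv3-8 (1992 UMIs) with Igkv2-109 (2589 UMIs) and Ighg2b (45 UMIs) and had the highest member share, 77.8%. Cell 4 had Igkv6-23 (3812 UMIs) and Ighg2b (231 UMIs) with no heavy variable UMI. In ICI 4, cell 1 had Ighv5-6 (7953 UMIs) with Ighg1 (803 UMIs), and cell 3 had Ighv1-54 (2144 UMIs) with Igkv5-45 (2209 UMIs) and Ighg1 (355 UMIs). Cells 2 and 4 of ICI 4 carried Igha, with Ighv1-26 (1719 UMIs) and Igkv12-46 (5864 UMIs) in cell 2 and Ighv1-9 (67 UMIs) and Igkv3-4 (219 UMIs) in cell 4.

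The isotype cells included 2 sets of cells with the same chains. Cells 1 and 2 both paired Ighv1-26 (3571 and 2910 UMIs) with Igkv1-135 (5109 and 4587 UMIs) and used Ighg2b (847 and 851 UMIs). Cells 3 and 5, in clusters 7 and 15, both paired Ighv4-1 (2754 and 1203 UMIs) with Igkv10-96 (3922 and 1561 UMIs) and used Ighm (538 and 308 UMIs). Cell 4 paired Ighv1-55 (1147 UMIs) with Igkv4-56 (2109 UMIs) and Ighm (481 UMIs). Cell 6, in cluster 2, had 549 Igkc and 148 Ighg2b UMIs but 4 UMIs each of Ighv1-26 and Igkv1-135. By heavy-chain constant gene, the ICI cells were Igha in 4, Ighg2b in 2 and Ighg1 in 2 of 8, and the isotype cells were Ighg2b in 3 and Ighm in 3 of 6. Cells of 1 library are not replicates, so this is a description of these cells with no test. Whether cells with the same chains came from 1 clone was not tested.

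**Figure D3:**
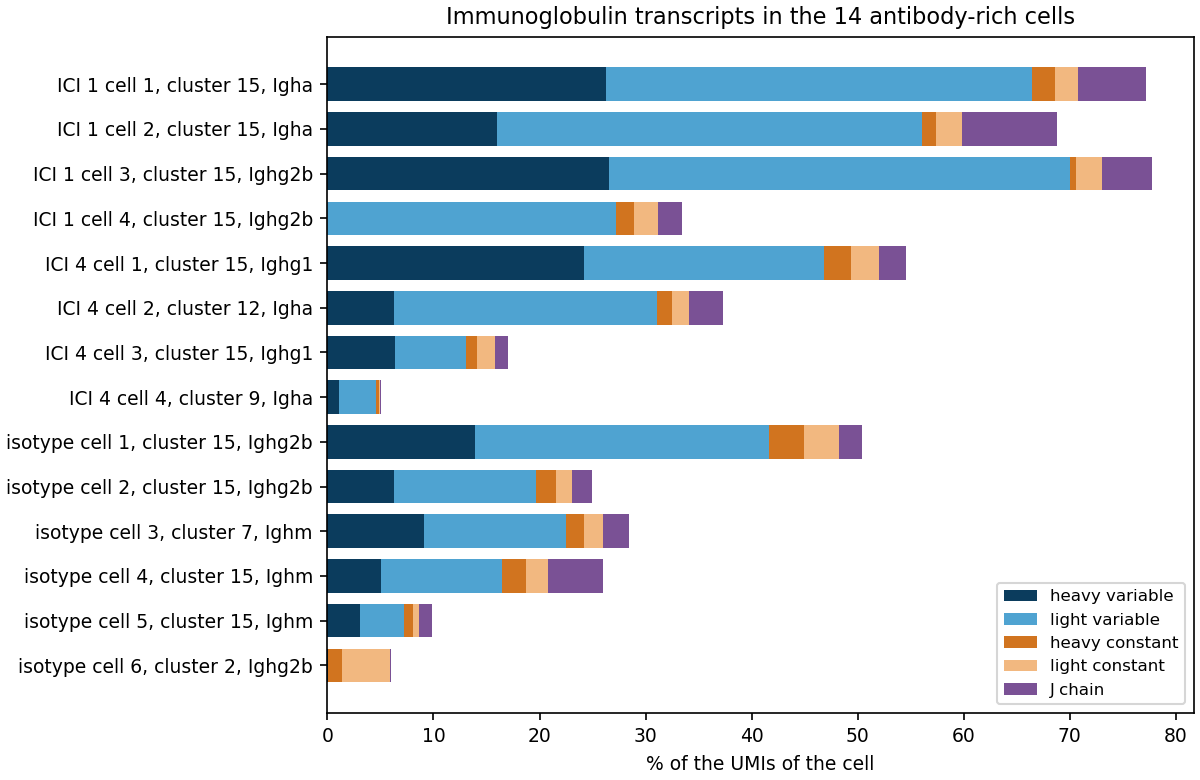
Bars give, for each of the 14 antibody-rich cells, the percent of its UMIs from each class of immunoglobulin gene, with ICI cells above isotype cells and each cell labelled by cluster and leading heavy constant gene. Variable genes (blue) form most of every bar except isotype cell 6, and the ICI 1 bars reach 77.8%.

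Genes of secretion accompanied the antibody transcripts when the antibody-rich cells were pooled. The 16 plasma cell and secretion genes summed to 13239 CPM in the antibody-rich cells against 891 CPM over all cells. Mzb1, an endoplasmic reticulum chaperone cofactor of antibody assembly, reached 4662 CPM against 43.0 CPM over all cells and had a UMI in 100% of these cells. Xbp1, the transcription factor of the secretory programme, reached 1803 CPM against 119 CPM. The surface marker Sdc1 (CD138) reached 105 CPM against 6.27 CPM. Single cells varied: ICI 4 cell 4 held 3 UMIs of the 16 genes among its 6266 UMIs, and isotype cell 6 held 18 among 12440. T cell markers were present too: 8 of the 14 cells held at least 10 UMIs of the 10 listed T cell genes, with 62 in ICI 4 cell 2 and 0 or 1 in the 4 ICI 1 cells, and with 192, 124 and 123 in isotype cells 6, 2 and 3. Isotype cells 3 and 2 also held 268 and 160 UMIs of macrophage markers. Doublets were not removed here, and their part in these cells was not tested.

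Cluster 14 held less antibody RNA per cell than the antibody-rich cells. Its cells had a median of 18 member UMIs in ICI (0.587% of UMIs, 144 cells) and 10 in isotype (0.385%, 16 cells). ICI 2 and ICI 3 gave 5 cells each, ICI 1 gave 61 and ICI 4 gave 73. Ighm was found in 71.9% of its cells and Ighd, the second receptor isotype of naive B cells, in 40.6%, against 0.583% for Ighd in all cells outside the cluster, at median depths of 3692.5 and 3617 UMIs. Switched constant genes were found in 30 of 144 ICI cells, 15 each in ICI 1 and ICI 4, and in 0 of 16 isotype cells, which allows a share of cells with such a UMI of up to 18.8% (3 of 16). In 74 cells with at least 5 light variable UMIs, the leading light variable gene gave a median of 97.4% of them. It was Igkv12-46 in 13 cells, Igkv3-1 in 10 and Igkv1-117 in 6, and 21 genes led in at least 1 cell.

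The light-chain constant genes in cluster 14 did not separate by cell as the variable genes did. UMIs of both Igkc and a lambda constant gene were found in 104 of its 160 cells. In 92 cells with at least 5 light constant UMIs, the lambda share lay between 10% and 90% in 77. Lambda constant genes had 855 UMIs and Igkc 748, whereas lambda variable genes had 119 UMIs and kappa variable genes 2331. Lambda was thus 53.3% of the light constant UMIs but 4.86% of the light variable UMIs of the same cells. In the antibody-rich cells, lambda gave 13.8% of the light constant and 2.96% of the light variable UMIs.

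Ighm was spread over most clusters. It had 11679 UMIs in 4166 cells, and 40.0% of the cells outside cluster 14 had at least 1 UMI. Depth differed between clusters. Cluster 5, with a median of 13085 UMIs per cell, had Ighm in 82.9% of cells, which became 20.5% when each cell was thinned to 1000 UMIs. Thinned shares were 45.3% in cluster 14 (unthinned 71.9%), 39.5% in cluster 11 (56.8%, median 1934 UMIs), 24.1% in cluster 4 (44.1%) and 6.48% in cluster 6 (14.7%). In cluster 11 the level was 521 CPM in both ICI 4 and isotype, close to the 581 CPM of cluster 14, with 6 Igkc UMIs beside 425 Ighm UMIs. In cluster 5 there were 2 Igkc UMIs beside 3085 Ighm UMIs, and in cluster 14 there were 748 Igkc beside 389 Ighm UMIs. The Ighm-to-Igkc ratio thus differed widely between clusters.

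Igkc was found in a small share of clusters 4 and 6 in every library. Cd3e, a chain of the T cell receptor complex, was found in 94.8% and 97.6% of their cells. In cluster 4, Igkc was found in 5.00%, 4.17%, 6.67% and 5.10% of the ICI 1 to ICI 4 cells and in 7.14% of the isotype cells. These were 8, 2, 3 and 29 cells in the ICI libraries. In isotype they were 2 of 28 cells (exact 95% interval 0.877% to 23.5%). In cluster 6 the Igkc shares were 8.20%, 5.91%, 7.29% and 4.84% in ICI 1 to ICI 4 and 4.48% in isotype. These were 5, 14, 18 and 3 cells in the ICI libraries and 3 of 67 in isotype, so several library values rest on very few cells. The pooled share was 5.18% in cluster 4 and 6.38% in cluster 6, against 0.578% in cluster 0, 1.64% in cluster 1, 0.114% in cluster 3 and 0.211% in cluster 8. Median depths of these 6 clusters were 3060, 3682.5, 3418, 2973, 4637 and 3695 UMIs in that order, and thinned shares were 3.10%, 2.01%, 0.460%, 1.29%, 0.115% and 0.222%. Of the 44 Igkc cells of cluster 4, all 44 held a Cd3 UMI, 1 held a kappa variable UMI and 0 held Cd79a, and of the 43 in cluster 6, 41 held a Cd3 UMI, 2 a kappa variable UMI and 1 Cd79a. Kappa variable genes were listed at 0 in ICI 2 and ICI 3, which gave 14 and 18 of the cluster 6 cells. Those cells could therefore show no kappa variable UMI. In ICI 1, 2 of 5 Igkc cells of cluster 6 and 1 of 8 of cluster 4 held one. In ICI 4 these were 0 of 3 and 0 of 29, and in isotype 0 of 3 and 0 of 2. Among all cells outside cluster 14, a variable UMI of any chain was found in 19.3% in ICI 1, 2.99% in ICI 4 and 7.19% in isotype. Cells of cluster 4 held up to 13 Igkc UMIs. Within ICI 1 other clusters had like shares, at 4.59% in cluster 1, 5.08% in cluster 2 and 6.73% in cluster 7 (4.22%, 6.15% and 2.06% thinned), against 5.00% and 8.20% in clusters 4 and 6 (3.23% and 2.13% thinned). Igkc was also found in 3.22% of cluster 12, in ICI 4 cells alone, and in 16.4% of cluster 15, which holds 10 of the 16 cells at 5% or more.

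**Figure D4:**
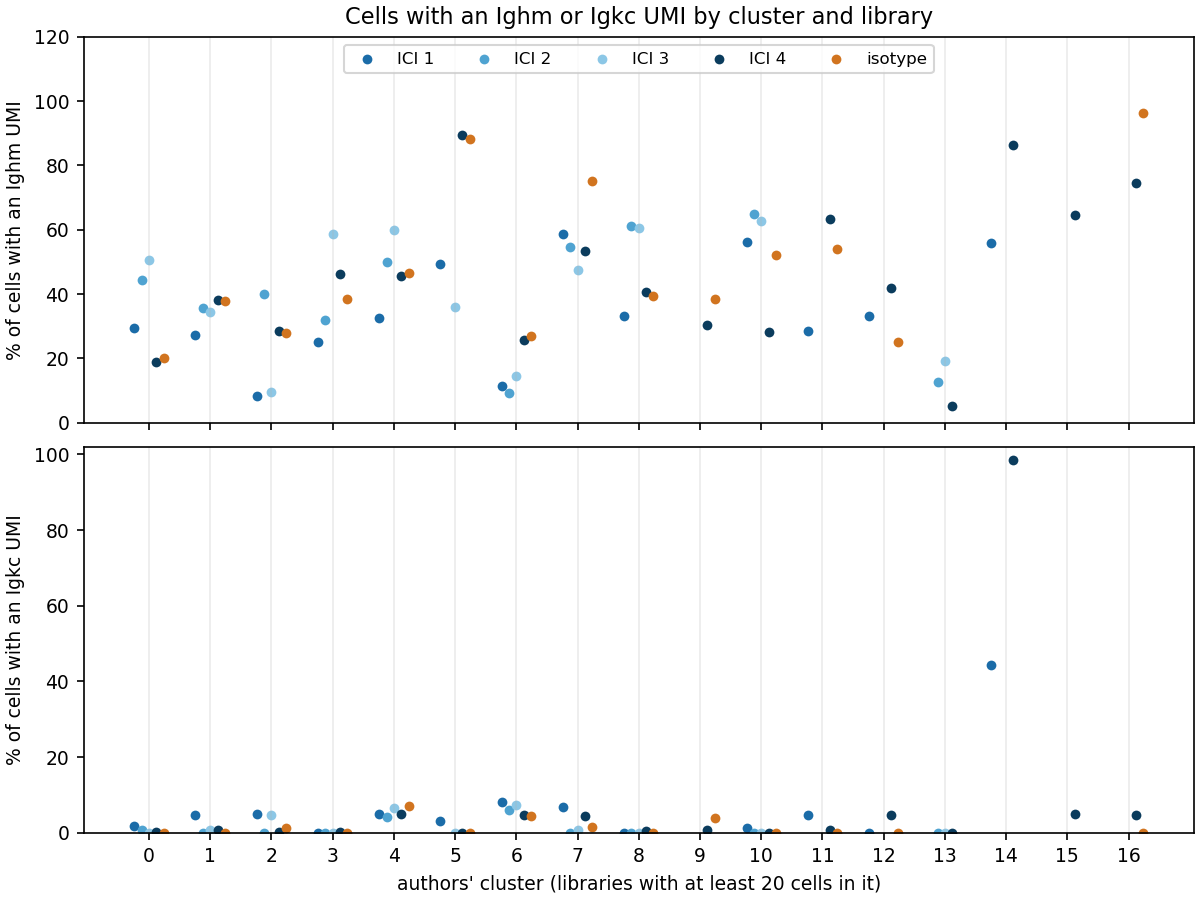
Points give the percent of cells with at least 1 Ighm UMI (top) and Igkc UMI (bottom) in each of the authors' clusters, 1 point per library with at least 20 cells there. Ighm is found in every cluster and reaches 89.6% of ICI 4 and 88.2% of isotype cells in cluster 5, whereas Igkc stays under 10% outside cluster 14, with clusters 4 and 6 above 4% in every library.

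A few variable genes were found in many cells at low counts. Igkv3-10 had 240 UMIs in 168 cells, all in ICI 1, spread over 15 clusters with at most 9 UMIs in a cell. Ighv1-39 was found in 60 ICI 1 cells, with at most 2 UMIs in each, and in 3 ICI 4 cells of cluster 14. Members other than Ighm were found in 25.7% of ICI 1 cells outside cluster 14, against 2.64%, 3.20% and 5.32% in ICI 2, ICI 3 and ICI 4 and 9.36% in isotype. Igkv10-96 had 177 UMIs in 13 isotype cells outside the antibody-rich cells, 163 of them in 1 cell. Ighv4-1 was at 1 UMI per cell in 30 ICI 4 cells. Igkv3-1 had 360 UMIs in 36 ICI 4 cells and 40 UMIs in 2 isotype cells. Free RNA from the antibody-rich cells was not measured separately, and its part in these low counts was not tested.

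The design asks whether antibody genes differed between ICI and isotype thyroids. The summed member level was 18194, 267, 263 and 1357 CPM in ICI 1 to ICI 4 and 5665 CPM in isotype. ICI 1 lay above isotype and the other 3 ICI libraries below it, so the groups overlapped. The ICI mean was 5020 ± 8798 CPM (SD, n = 4), 645 CPM under isotype, which is a difference of -645 CPM with a two-sided exact permutation p of 1. With 4 libraries against 1 the smallest p this test can give is 0.2. Without the cells at 5% or more, the levels were 655, 251, 257 and 298 CPM in ICI 1 to ICI 4 and 301 CPM in isotype, and the difference was 64.0 CPM. The 4 such cells of ICI 1 held 77789 member UMIs and the 6 of isotype held 43662. With ICI 2 and ICI 3 summed as 1 library, the difference over all cells was 940 CPM (exact permutation p = 1).

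Variable members together were at 15089, 0.778, 0.913 and 953 CPM in ICI 1 to ICI 4 and at 4162 CPM in isotype. All 38 kappa variable genes were listed at 0 in ICI 2 and ICI 3. Igkc was at 529, 9.33, 19.9 and 74.3 CPM in the ICI libraries and 394 CPM in isotype. Jchain was at 1676, 10.9, 0 and 67.4 CPM in the ICI libraries and 470 CPM in isotype, again with ICI 1 alone above isotype. The barcode shared by the ICI 2 and ICI 3 cells at 5% or more had 39 Jchain UMIs in ICI 2 and 0 in ICI 3. It had 16 Igha UMIs in each. Jchain may therefore have been left out of the ICI 3 table before deposit, which was not tested. Igha was at 379, 5.18, 4.57 and 12.9 CPM in the ICI libraries and 5.90 CPM in isotype, and without the cells at 5% or more it was at 3.47, 1.04, 0.913 and 0.776 CPM against 0.126 CPM (1 UMI). Ighg2b was at 71.1, 0, 0 and 0.712 CPM in the ICI libraries and 228 CPM in isotype. Ighg1 had 41 and 1205 UMIs in ICI 1 and ICI 4 and was listed at 0 in ICI 2, ICI 3 and isotype. Ighg3 had 4 and 8 UMIs in ICI 1 and ICI 4, Ighe had 22 UMIs in ICI 4, and Ighg2c had 18 UMIs in isotype, each being listed at 0 in the other libraries. Ighd was at 6.54, 3.11, 1.83 and 4.03 CPM in the ICI libraries and 1.72 CPM in isotype, the only tested member higher in every ICI library.

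Over all cells, the lambda constant genes were above isotype in ICI 1 alone, as Igkc was. Iglc2 was at 119, 6.22, 3.88 and 10.9 CPM in ICI 1 to ICI 4 and 21.2 CPM in isotype. Iglc3 was at 49.0, 7.78, 4.34 and 5.91 CPM in the ICI libraries and 8.36 CPM in isotype. Iglc1 was at 45.4, 0, 0 and 4.86 CPM in the ICI libraries and 18.2 CPM in isotype. Without the cells at 5% or more, the order changed. Iglc3 was then at 33.3, 7.78, 4.34 and 5.34 CPM in ICI 1 to ICI 4 and 1.76 CPM in isotype. Iglc2 was at 54.2, 6.22, 3.65 and 7.55 CPM against 4.02 CPM, and Iglc1 at 14.8, 0, 0 and 1.52 CPM against 0.629 CPM. Igkc was at 67.4, 8.29, 17.6 and 23.4 CPM against 20.1 CPM.

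**Figure D5:**
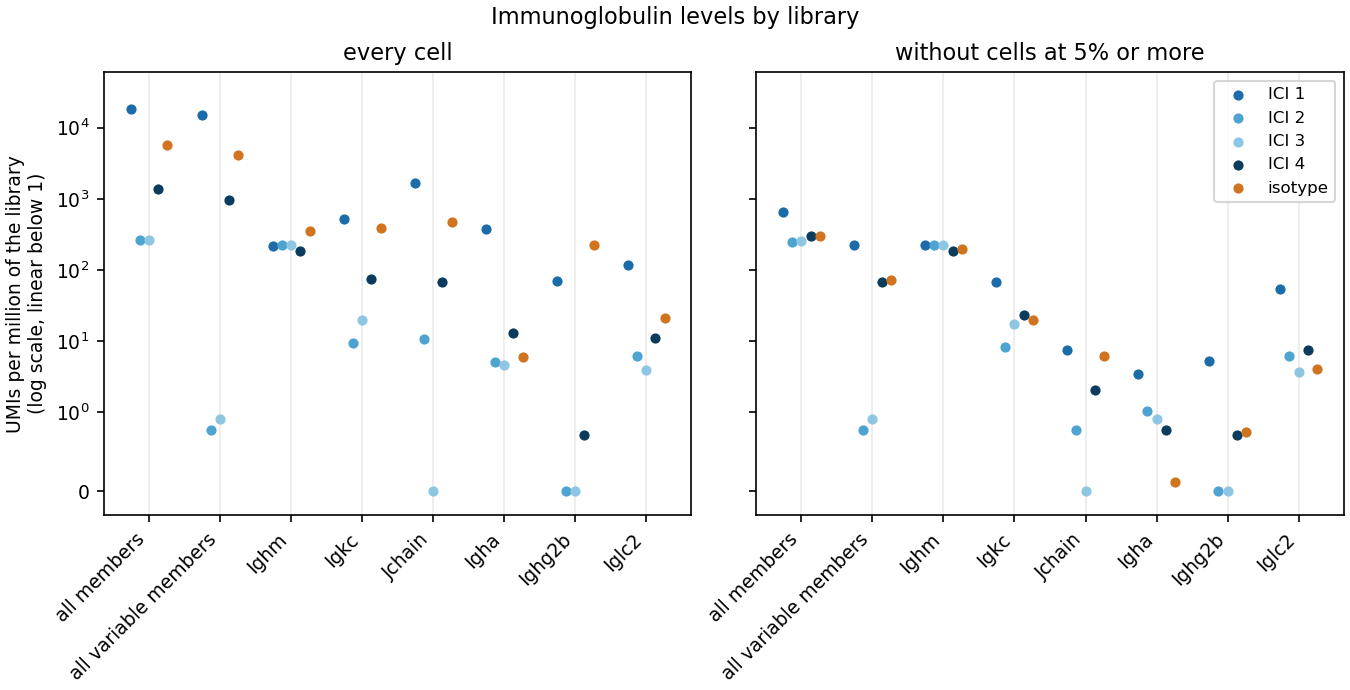
Points give the level (CPM) for all members, all variable members and 6 single genes, over every cell (left) and without the cells at 5% or more (right), on an axis that is logarithmic above 1 and linear below. On the left ICI 1 reaches 18194 CPM and isotype 5665 CPM for all members; on the right the 5 libraries lie between 251 and 655 CPM.

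Across all cells, no member passed the test. Of 52 members that passed the low-count filter, 0 were called at an adjusted p under 0.05 by edgeR's quasi-likelihood test, where 0 of 12659 genes (0%) were called, and 11 members and 516 genes had an unadjusted p under 0.05. DESeq2 called 5 members and 38 genes (0.3%). Every ICI library lay below isotype for 14 of the 52 members, against 19.1% of all genes tested, and above it for 1, against 27.3%. In ICI 2, 74 of all 82 members were listed at 0. A member at 0 there could not lie above isotype, and one with isotype UMIs could only lie below it in that library. These counts are therefore partly set by such zeros. With a floor of 3 counts per group for genes at 0, the median log2 ratio of ICI to isotype was 1.39 over the members (25 of them at 0 in isotype) and 0.12 over all genes tested. Those 25 passed the low-count filter through ICI counts alone and 4 members through isotype counts alone. Of all 12659 genes tested, 72 were at 0 in isotype. The 2 medians are therefore not a like comparison and show no shift of the family. The members called without ICI 4 were variable genes of antibody-rich isotype cells. Of these, Ighv1-26, Ighv4-1, Igkv1-131 and Igkv1-133 were listed at 0 in ICI 1 to 3, and Igkv1-135 had 6 UMIs in ICI 1. Such zeros may be genes left out before deposit, so the calls cannot tell a lower level in ICI from that. Without ICI 4, edgeR called 7 members, all lower in ICI, and 210 genes (1.68%).

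Ighm was at 220, 223, 228 and 185 CPM in ICI 1 to ICI 4 and 354 CPM in isotype, so all 4 ICI libraries lay below isotype. The log2 fold change was -0.83 (SE 0.24), with an edgeR p of 0.0147 and an adjusted p of 0.817, and the DESeq2 adjusted p was 0.0308. The 6 isotype cells at 5% or more held 1334 of the 2881 isotype Ighm UMIs. Without such cells Ighm was at 225, 223, 228 and 184 CPM in the ICI libraries and 195 CPM in isotype, and the log2 fold change was 0.042 (SE 0.25, edgeR adjusted p = 0.964). For Igkc the log2 fold change was -1.47 (SE 1.85, edgeR adjusted p = 0.827) and for Jchain -0.27 (SE 3.19, edgeR adjusted p = 0.981).

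Outside cluster 14, 1 of 43 tested members was called by edgeR, among 1 of 12595 genes (0.00794%). This was Igkv1-133, with 0, 0, 0 and 1 UMI in ICI 1 to ICI 4 and 565 UMIs in isotype. Its fitted log2 fold change was -11.07 (SE 0.47, edgeR adjusted p = 0.0157), a value that depends on the prior count. That SE was derived from the fold change and the test statistic, and DESeq2 gave an SE of 1.20. The 2 isotype cells with Ighv1-26 and Igkv1-135 held 559 of the 565 UMIs, or 98.9%, and the call was lost without ICI 1, ICI 2 or ICI 3 in turn (edgeR adjusted p = 0.202, 0.119 and 0.142) with each library's highest cell left out (0.803) and with ICI 2 and ICI 3 summed (0.171). It held without ICI 4 (0.0369), and the log2 fold change was -11.57 to -11.01 as each ICI library was left out. Every ICI library lay below isotype for 13 of the 43 members (19.1% of all genes) and above it for 0 (27.3%). Members listed at 0 in ICI 2 limit these counts as they do over all cells. DESeq2 called 8 members and 40 genes (0.318%), and without ICI 4 edgeR called 8 members and 220 genes (1.76%). The members called without ICI 4 were those called over all cells in that setting plus Igkv10-96, also a variable gene of antibody-rich isotype cells. Igkv10-96 had 3 UMIs in ICI 1 and was listed at 0 in ICI 2 and ICI 3, so the same limit applies. The median log2 ratio with the floor was 1.85 over the 43 tested members and 0.12 over all genes tested. Here 19 members at 0 in isotype passed the filter through ICI counts alone, so these medians are not a like comparison either.

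Within cluster 14 the test used ICI 1, ICI 4 and isotype, the libraries with at least 10 cells there. Of 27 tested members, edgeR called 0, as for all 3223 genes (0%), while 12 members and 78 genes had an unadjusted p under 0.05, and DESeq2 called 0 (0%). Ighm was at 600 and 609 CPM in ICI 1 and ICI 4 and 301 CPM in isotype (18 UMIs), with a log2 fold change of 0.94 (SE 0.87, edgeR adjusted p = 0.999). Igkc was at 1604 and 997 CPM in the ICI libraries and 1003 CPM in isotype. Both ICI libraries lay above isotype for 15 members, against 39% of all genes tested, and below it for 2, against 32.3%. The 14 members at 0 in isotype rest on 16 cells there and passed the filter through ICI counts alone. With the floor the median log2 ratio was 1.11 over members and 0.14 over all genes tested, which is not a like comparison for that reason. With ICI 1 to 3 summed, edgeR called 1 of 28 members and 2 of 3893 genes (0.0514%). The member was Igkv6-20, which had 329 UMIs in ICI 4 and was listed at 0 in the other libraries.

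Shares by library overlapped between the groups for cells with at least 1% member UMIs and for switched genes. The exact permutation test could decide none of the shares, because with 4 libraries against 1 it can give no p under 0.2. Cells outside cluster 14 with a member UMI made up 48.6%, 38.5%, 39.6% and 44.2% in ICI 1 to ICI 4 and 52.4% in isotype, a difference of -9.69 percentage points with an exact permutation p of 0.2. Thinned to 1000 UMIs, the shares were 29.3%, 20.4%, 20.4% and 15.1% in the ICI libraries and 20.9% in isotype. Cells with at least 1% member UMIs were 0.592 ± 0.735% in ICI (SD, n = 4) and 0.740% in isotype (exact permutation p = 0.8). The lambda share of light constant UMIs was 28.7%, 60.0%, 29.3% and 22.6% in ICI 1 to ICI 4 and 10.8% in isotype, higher in 4 of 4 ICI libraries (exact permutation p = 0.4). The share of heavy constant UMIs from switched genes was 67.1%, 2.24%, 1.95% and 21.6% in the ICI libraries and 39.9% in isotype (exact permutation p = 0.8). Without the cells at 5% or more, the switched shares were 7.65%, 0.456%, 0.396% and 1.57% in the ICI libraries and 0.446% in isotype.

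Other genes of the pathway were followed as lists. Over all cells, edgeR called 0 of 17 tested B cell identity genes, 0 of 16 plasma cell and secretion genes, 0 of 7 germinal centre and class switching genes, 0 of 4 surrogate light chain and recombination genes and 0 of 7 antibody receptor and transport genes. Their median log2 fold changes were 0.60, -0.38, -1.02, -2.11 and 0.40 in that order, against 0.02 over all genes tested. It also called 0 of 10 T cell, 0 of 10 macrophage, 0 of 6 plasmacytoid dendritic, 0 of 4 thyroid epithelial and 0 of 5 red cell markers. Outside cluster 14 the B cell identity genes had a median of -0.73 over 11 tested. Within cluster 14, edgeR called 0 genes of any list. All 9 tested plasma cell and secretion genes had a positive log2 fold change there, with a median of 0.48, and all 7 tested T cell markers had a negative one, with a median of -1.16, against a median of 0.08 over all genes tested.

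The octamer ATGCAAAT, a known element of immunoglobulin promoters, was searched on both strands of the RefSeq promoter windows from 250 bases before to 50 bases after each gene start. Jchain was the only member with a window, and it held no match. The octamer was found in 570 of 32851 windows (1.74%).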

How the data were processed

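Single-cell 5′ libraries of CD45+ thyroid cells were analysed from the deposited table of raw UMI counts per gene and cell, and cells were assigned to the clusters and libraries of the authors' cell table. The submitters' processing notes name Cell Ranger, Seurat and build mm10, without versions. Per the file headers, the authors also deposited clusters made at resolution 0.4, the percent of mitochondrial UMIs per cell and cell cycle scores; these percent and score values entered no comparison. The depth was 3858251 to 32296759 UMIs per library. The members and the gene lists were chosen with earlier results of these data known.

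Counts of each library were summed over all cells, over cells outside cluster 14 and over cluster 14, filtered (filterByExpr, minimum count 10), TMM-scaled and compared between ICI and isotype with edgeR's quasi-likelihood test and Benjamini-Hochberg adjustment over all genes; DESeq2 was an alternative. Both were tested on simulated data. The SE of each edgeR log2 fold change was its absolute value divided by the square root of the test's F statistic. CPM values and shares were computed from the counts and compared by two-sided exact permutation tests. Cells under 1000 UMIs (617) were left out of thinned shares. Text names all constant genes, Jchain, the 10 variable genes with most UMIs, the 5 found in most cells and any member past the threshold; the antibody-rich cells bring in others, chosen after their values were seen. Alternatives were other scaling, no filter, other cell thresholds, each gene's highest cell left out, single ICI libraries left out, sums of ICI 1 to 3 and of ICI 2 and ICI 3, and 1 copy of shared barcodes. Doublets were not called. Tools were Python 3.11.15, numpy 2.4.6, pandas 2.3.3, scipy 1.17.1, matplotlib 3.10.9, R 4.3.3, edgeR 4.0.16 and DESeq2 1.42.0.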

Additional observations from a re-analysis of the deposited data

Results flagged for a closer look

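In 10 of 19 results with 4 ICI libraries, 1 library stood apart from the other 3 by more than the critical gap of Dixon's test. In 9 of them the library was ICI 1, where 4 cells held 96.5% of the member UMIs. The test's chance rate of about 1 in 20 is for a single result with normally distributed values. These results overlap in genes and cells, so the count of flags cannot be set against that rate. The summed member level was 18194 CPM in ICI 1 (next highest 1357 CPM) and 18431 CPM outside cluster 14 (1274 CPM). Jchain was at 1676 CPM (67.4 CPM), Igkc at 529 CPM (74.3 CPM), Igha at 379 CPM (12.9 CPM) and Ighg2b at 71.1 CPM (0.712 CPM). Iglc2 was at 119 CPM (10.9 CPM), Iglc3 at 49.0 CPM (7.78 CPM) and Iglc1 at 45.4 CPM (4.86 CPM). Without the cells at 5% or more, ICI 1 still stood apart for the summed level over all cells (655 CPM, next 298 CPM), Igha (3.47 and 1.04 CPM), Ighg2b (5.33 and 0.714 CPM), Iglc2 (54.2 and 7.55 CPM), Iglc3 (33.3 and 7.78 CPM) and Iglc1 (14.8 and 1.52 CPM), but not for Jchain or Igkc. Ighe, at 0.681 CPM in ICI 4, was listed at 0 in ICI 1, ICI 2 and ICI 3.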

How the results depend on the processing

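Outside cluster 14, the count of called members (1) became 8 with DESeq2 and 0 with the highest cell of each gene left out, with ICI 1 to 3 summed, with ICI 2 and ICI 3 summed and without cells at 5% or more; it ranged from 0 to 8 as each ICI library was left out. Over all cells the count (0) became 5 with DESeq2 and 1, Ighv1-26, with the highest cell left out, and ranged from 0 to 7 as each ICI library was left out. In cluster 14 it became 1 with ICI 1 to 3 summed; no residual degree of freedom was left there without ICI 1 or ICI 4. As each ICI library was left out, the level difference ranged from -5036 to 941 CPM over all cells and from -5076 to 985 CPM outside cluster 14, and the difference in cells at 1% or more from -0.498 to 0.0222 percentage points. The all-cell level difference reversed to 64.0 CPM without cells at 5% or more. With ICI 2 and ICI 3 summed, it reversed to 940 CPM, that outside cluster 14 to 984 CPM, that in cells at 1% or more to 0.0215 points and the Jchain log2 fold change to 0.14. The difference in cells with a member UMI reversed to 0.415 points when thinned and ranged from -11.6 to -8.28 as libraries were left out. That in cells at 1% or more reversed to 0.246 points at a threshold of 0.5% and to 0.168 without cells at 5% or more. The switched share difference (-16.7 points, range -31.3 to -9.60) reversed to 1.93 when cells were counted and to 2.07 without cells at 5% or more. The lambda share difference (24.3 points) ranged from 16.1 to 28.5. Log2 fold changes reversed to 0.042 for Ighm and 0.40 for Igkc without cells at 5% or more, to -0.12 for Igkc in cluster 14 with the highest cell left out, and to 0.14, 0.14 and 0.08 for Jchain without ICI 2, ICI 3 and ICI 4 (range -4.16 to 0.14). The cause of the other changes was not tested. The settings without cells at 5% or more and with ICI 2 and ICI 3 summed were chosen after seeing the data. All other alternatives, 64 of 94 for the main results, kept direction and side of the threshold. No paired analysis was possible because the labels give no replicate numbers shared between the groups and isotype has 1 library. Depth limits what absence shows.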
